A study of Mus musculus with 18 samples.

Results

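The response of wild type (WT) mouse macrophages to interleukin 4 (IL-4) was read from 6 of the 18 RNA sequencing libraries of the series, 3 of WT cells kept with IL-4 and 3 of WT cells kept without it. All 6 came from C57BL/6 mice 8 weeks old, and their marrow cells were first turned into macrophages with the growth factor M-CSF (50 ng/ml, 6 days, RPMI with 20% serum). The M-CSF group then spent 24 h in M-CSF alone, and the IL-4 group spent 48 h in M-CSF plus IL-4, each cytokine at 20 ng/ml. The stimulus and the time in culture therefore cannot be told apart in any value below. The remaining 12 libraries were WT cells stimulated over 24 h by LPS (100 ng/ml) together with IFNg, the cytokine interferon gamma, and cells of the genotype p110g-/-, which lacks the p110gamma catalytic subunit of phosphoinositide 3-kinase, under the same 3 stimuli. They served to estimate the spread between libraries, and the p110g-/- cells were used again for a comparison at the end. The mice of these 12 libraries were also 8 weeks old, and the cells had the same first culture in M-CSF (50 ng/ml, 6 days). The genes described are those with a signal of at least 10 in 3 or more of the 18 libraries, which was true of 15627 of the 16474 genes in the table.

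IL-4 is the cytokine of type 2 immunity, made by T helper cells, basophils, eosinophils and innate lymphoid cells. On macrophages it binds the IL-4 receptor alpha chain (Il4ra), which pairs with the common gamma chain (Il2rg) or with Il13ra1. The Janus kinases bound to these chains phosphorylate the transcription factor Stat6, which enters the nucleus and binds DNA as a dimer. The resulting state is called alternative activation and is known for secreted resistin-like and chitinase-like proteins, arginase, mannose-binding lectins, chemokines that attract type 2 cells and, in some cells, fusion into giant cells. Interferon gamma and LPS act through interferon regulatory factors and NF-kB, among others, and drive a different programme.

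Promoter sequences of leading genes are shown first, marked for 2 DNA motifs known to be bound by factors of these pathways. Stat6 dimers are known to prefer a palindrome in which TTC and GAA stand 4 bases apart. Interferon regulatory factors bind the interferon-stimulated response element, searched here as GAAA and GAAA with 2 bases between them. Each sequence below is the 250 bases just before the annotated gene start in RefSeq (build GRCm38.p6), given 5′ to 3′ on the gene's strand in lower case, with the motif on either strand in capitals. A window was found for 47 of 67 leading genes looked up. The Stat6 motif stood in the windows of Retnla, Ccl17, Pdcd1lg2 and Tmem26, which rose, and of Asb10, which fell. The interferon motif stood in those of Cxcl10 and I830012O16Rik, which fell, and of Socs1, which rose. The motifs were searched separately. Each occurred in genes that rose and in genes that fell, and whether the motifs tell the pathways apart was not tested. Among all 32851 promoter windows of the table, 5.85% held the Stat6 motif and 2.98% the interferon motif within these 250 bases. A match describes the letters and is not evidence of binding.
Retnla, plus strand, chr16:48842359-48842608: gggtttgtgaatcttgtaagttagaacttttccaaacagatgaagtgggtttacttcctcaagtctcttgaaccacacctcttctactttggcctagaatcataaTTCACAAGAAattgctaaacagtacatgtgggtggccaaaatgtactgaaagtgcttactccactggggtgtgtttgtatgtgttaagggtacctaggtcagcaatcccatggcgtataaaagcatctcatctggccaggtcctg
Ccl17, plus strand, chr8:94810203-94810452: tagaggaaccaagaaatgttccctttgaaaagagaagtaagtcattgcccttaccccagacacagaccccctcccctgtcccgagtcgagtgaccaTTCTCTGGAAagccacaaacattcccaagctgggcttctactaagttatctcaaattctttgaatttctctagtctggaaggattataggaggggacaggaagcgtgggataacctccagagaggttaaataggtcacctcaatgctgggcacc
Pdcd1lg2, plus strand, chr19:29410669-29410918: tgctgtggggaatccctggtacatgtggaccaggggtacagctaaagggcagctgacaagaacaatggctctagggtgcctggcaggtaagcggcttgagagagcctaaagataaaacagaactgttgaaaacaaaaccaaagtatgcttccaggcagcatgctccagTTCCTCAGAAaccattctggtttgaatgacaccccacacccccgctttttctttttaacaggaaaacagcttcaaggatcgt
Asb10, minus strand, chr5:24540979-24541228: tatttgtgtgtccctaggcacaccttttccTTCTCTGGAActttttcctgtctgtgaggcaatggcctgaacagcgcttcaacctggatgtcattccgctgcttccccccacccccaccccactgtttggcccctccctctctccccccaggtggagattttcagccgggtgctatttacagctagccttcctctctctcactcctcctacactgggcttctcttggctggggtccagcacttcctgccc
Cxcl10, minus strand, chr5:92348890-92349139: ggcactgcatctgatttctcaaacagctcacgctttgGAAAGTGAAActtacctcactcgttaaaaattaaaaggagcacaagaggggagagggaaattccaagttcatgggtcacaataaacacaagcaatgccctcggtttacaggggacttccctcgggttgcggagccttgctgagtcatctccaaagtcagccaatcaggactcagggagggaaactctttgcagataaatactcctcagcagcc
I830012O16Rik, plus strand, chr19:34607707-34607956: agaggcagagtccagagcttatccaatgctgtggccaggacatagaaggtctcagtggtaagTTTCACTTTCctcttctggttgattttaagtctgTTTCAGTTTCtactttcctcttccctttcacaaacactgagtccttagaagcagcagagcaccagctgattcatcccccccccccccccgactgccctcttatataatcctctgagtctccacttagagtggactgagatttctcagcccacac
The first base of the motif lay 145 bases before the start in Retnla, 154 in Ccl17, 82 in Pdcd1lg2, 220 in Asb10 and 213 in Cxcl10. In I830012O16Rik, an interferon-induced gene of the Ifit family, it occurred 2 times, 188 and 154 bases before the start, in both cases on the other strand.

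The deposited values are normalised read counts per gene, called signal here, and they are not divided by gene length, so levels are compared between libraries and not between genes. The 6 libraries held from 40.6 M to 59.5 M reads over the listed genes, and each had between 139 and 250 genes at 0. A count of 0 allows up to 3 reads, a signal of 2.3 to 3.51 in these libraries, for counting error only. Library 1 of each group stood apart from libraries 2 and 3. The median difference between libraries of a group was 0.15 to 0.186 on the log2 scale where library 1 was in the pair, and 0.102 (M-CSF) and 0.0815 (IL-4) between libraries 2 and 3. In a principal component analysis the groups lay apart on the first axis (71.9% of the variance), and library 1 of both groups lay apart on the next (14.9%). Values are therefore listed in the order of libraries 1, 2 and 3, and where a gene described below lost its call without 1 library, this is said.

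Several markers of other cell types were higher in library 1 of both groups. The neutrophil gene S100a9 read 13716, 2608 and 4096 in the M-CSF libraries and 8674, 1786 and 1793 in the IL-4 libraries. Elane, another neutrophil gene, read 273, 22.7 and 20.6 under M-CSF and 142, 9.1 and 18.7 under IL-4, and Col1a1 of fibroblasts read 1055, 138 and 139.6 under M-CSF and 427, 74.7 and 44.5 under IL-4. Their part in the differences was not tested. Beside the response itself, the summed signal of 10 neutrophil markers lay between 11115 and 34394 under M-CSF and between 7882 and 25528 under IL-4, and 1 of the 10 passed the test, in the lower direction. None of 8 fibroblast, 6 monocyte or 4 T and NK cell markers passed it, and neither did 3 of the 4 B cell, 3 of the 4 mast cell and 5 of the 6 basophil and eosinophil markers tested. The summed signal of 4 endothelial markers was 3590 to 3997 under M-CSF and 10004 to 11165 under IL-4, with Vwf higher (1.74) and Kdr lower (-2.52), and the 1 erythroid marker tested, Epor, was lower (-1.99). These 3 genes were chosen after their values were seen, and the part of such cells in the differences was not tested. No marker with a value in these data was at 0 in all 6 libraries. Several listed markers had no value, and those with one were, for example, 5 of 10 T and NK cell, 5 of 9 mast cell and 3 of 6 erythroid markers. Macrophage markers were high throughout, with a summed signal of 871129 to 1026815 under M-CSF and 498545 to 552169 under IL-4, and 6 of the 7 were lower under IL-4. Emr1, the gene of the macrophage antigen F4/80, read 117144, 92406 and 93406 in the M-CSF libraries and 50588, 48989 and 47757 in the IL-4 libraries. In bulk RNA, fewer cells of a type and less RNA per cell cannot be told apart.

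A change is given below as the log2 fold change, IL-4 minus M-CSF on the scale of log2(signal + 1), with its standard error (SE) and with the p-value from limma, adjusted over the 15627 genes by the Benjamini-Hochberg method. By this test 6868 genes (43.9%) differed at an adjusted p under 0.05, 3577 of them (22.9%) higher and 3291 (21.1%) lower under IL-4. Of these, 935 (5.98%) were at least 2-fold higher and 955 (6.11%) at least 2-fold lower. The largest changes were on the higher side. A log2 fold change of 4 or more was reached by 78 higher and 15 lower genes, and one of 5 or more by 48 higher and 3 lower genes. The groups did not overlap for 4660 genes (29.8%) with IL-4 above and 4303 (27.5%) with IL-4 below. Many genes named below were picked for small p-values or for having no overlap. A lack of overlap stated for them is a description and not further support. The median log2 fold change of all tested genes was 0.003, which is the value to hold against the medians of gene lists given below, as the shares of 22.9% and 21.1% are to be held against their counts.

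Genes known for alternative activation were mostly higher. Of 33 hallmark genes of IL-4 in macrophages 28 were higher, against 22.9% of all tested genes, 2 were lower and 3 did not pass the test, and their median log2 fold change was 3.23. Leaving out any 1 library gave 25 to 28 higher. This list, like the others, was chosen with earlier results of these data known. Its count against all tested genes is therefore a description and not an independent test. Genes with no more than 3 reads in each M-CSF library have no defined fold, and theirs is given as at least the ratio of the IL-4 mean to the signal of 3 reads. Values of genes with near-identical copies (the Ear genes, Chi3l3 with Chi3l4, the Gbp, Clec4a and Scd genes) are uncertain, because how reads shared between copies were counted is not given in the sources used here.

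Retnla, which encodes the secreted resistin-like protein RELM alpha, read 0, 0.9 and 0 in the M-CSF libraries and 160556, 284183 and 214466 in the IL-4 libraries. It was thus at or near 0 without IL-4 and at least 80655-fold higher with it (adjusted p = 2.1e-08). Arg1, arginase 1, read 0, 2.6 and 0 under M-CSF and 2949, 7251 and 6736 under IL-4, at least 2072-fold higher (adjusted p = 1.3e-10). Ear11, a secreted ribonuclease of the eosinophil-associated family that is known as a chemoattractant, read 0, 0 and 1.1 under M-CSF and 11036, 20116 and 17364 under IL-4, at least 5936-fold higher (adjusted p = 1.3e-10). In these genes each IL-4 library was far above every M-CSF library, and IL-4 library 1 was the lowest of its group.

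The chitinase-like genes had a different starting level. Chi3l3, which encodes Ym1, read 6774, 937 and 1373 in the M-CSF libraries and 240932, 158794 and 152105 in the IL-4 libraries, a log2 fold change of 6.45 (SE 0.59 and adjusted p = 7.4e-07). Its neighbour Chi3l4 (Ym2) read 705, 93.5 and 129.9 under M-CSF and 23847, 15613 and 14685 under IL-4, a log2 fold change of 6.42 (SE 0.64 and adjusted p = 1.5e-06). Both were several times higher in M-CSF library 1 than in M-CSF libraries 2 and 3, and the groups still did not overlap. Of the other ribonuclease genes, Ear2 went from 148, 97.9 and 119 to 10250.4, 10739.8 and 9621, and Ear1 from 20, 3.5 and 8.7 to 1161, 1299.8 and 1122. Ear10 went from 16.9, 16.6 and 14.1 to 1342, 1321 and 1269.6. Of the 12 tested genes of this secreted list 8 were higher, namely Retnla, Chi3l3, Chi3l4 and 5 Ear genes, and the list median was 6.34. Retnlg, Chi3l1, Rnase4 and Ang did not pass the test, and Chi3l1 had a log2 fold change of -1.03.

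Lectins and several other surface proteins of the hallmark set also rose. Mgl2, a galactose-type lectin, read 112, 135 and 119 in the M-CSF libraries and 10171, 23217 and 22164 in the IL-4 libraries, a log2 fold change of 7.15 (SE 0.38 and adjusted p = 3.1e-09). Clec10a, its neighbour and relative, read 403, 685 and 624 under M-CSF and 2156, 5012 and 4631 under IL-4, a log2 fold change of 2.73 (SE 0.44 and adjusted p = 0.00015). Mrc1, the mannose receptor, was abundant in both groups at 27351, 32689.8 and 28955 under M-CSF and 53084, 55252 and 51922 under IL-4, and its change was small at 0.85 (SE 0.21 and adjusted p = 0.0046). For Mgl2 and Clec10a, IL-4 library 1 had less than the signal of libraries 2 and 3, while for Mrc1 the 3 IL-4 libraries were close together. Cdh1, the adhesion protein E-cadherin, was near the limit of counting under M-CSF at 8.5, 4.4 and 8.7 and reached 275, 283 and 335 under IL-4. Pdcd1lg2, the ligand PD-L2 of the inhibitory receptor PD-1, went from 36.1, 27.1 and 24.9 to 3115, 2094 and 1594, a log2 fold change of 6.19 (SE 0.27 and adjusted p = 3.5e-10). Flt1, a receptor for vascular endothelial growth factor, went from 16.1, 60.3 and 8.7 to 2169, 4972 and 5634, a log2 fold change of 7.50 (SE 0.55 and adjusted p = 7.3e-08). The M-CSF values of Flt1 were uneven, and each IL-4 library still lay above all of them.

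Some genes commonly used as IL-4 markers did not pass the test, were lower, rose only modestly or lost their calls without single libraries. Alox15, the lipoxygenase that marks IL-4-treated human monocytes, read 7.7, 6.1 and 10.8 in the M-CSF libraries and 9.3, 20.7 and 15.2 in the IL-4 libraries, near the limit of counting, and did not pass the test (log2 change 0.77, SE 0.50, adjusted p = 0.23). Tgm2, transglutaminase 2, read 7886, 4203 and 5982 under M-CSF and 3922, 6240 and 6772 under IL-4 and its groups overlapped (log2 change -0.09, SE 0.23, adjusted p = 0.8). Atp6v0d2, a proton pump subunit linked to cell fusion, read 27122, 55042 and 53220.2 under M-CSF and 91695, 86453 and 79408 under IL-4 with an adjusted p of 0.089, which became 0.0283 when library number was fitted as a block. F13a1, the A chain of coagulation factor XIII and a marker of alternative activation in human cells, was lower at 164, 120.3 and 119.5 against 704, 583 and 630, a log2 fold change of -2.25 (SE 0.25 and adjusted p = 5.2e-06). For F13a1 the highest IL-4 library was below the lowest M-CSF library. Igf1, insulin-like growth factor 1, rose modestly from 48565, 39104 and 42334 to 87289, 71761 and 69000.3 (log2 change 0.81, SE 0.20, adjusted p = 0.0045). Calls for Egr2, Pparg and Cd36 depended on M-CSF library 1. Without it their adjusted p-values were 0.0785, 0.0797 and 0.202, against 0.018, 0.021 and 0.047 with it, and without IL-4 library 2 the values of Pparg and Cd36 were 0.0562 and 0.12. Cd36, the fatty acid and lipoprotein receptor, also lost the call without M-CSF library 3, IL-4 library 1 or IL-4 library 3, with adjusted p-values of 0.0728, 0.0668 and 0.0994, and by edgeR (0.0641).

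**Figure D1:**
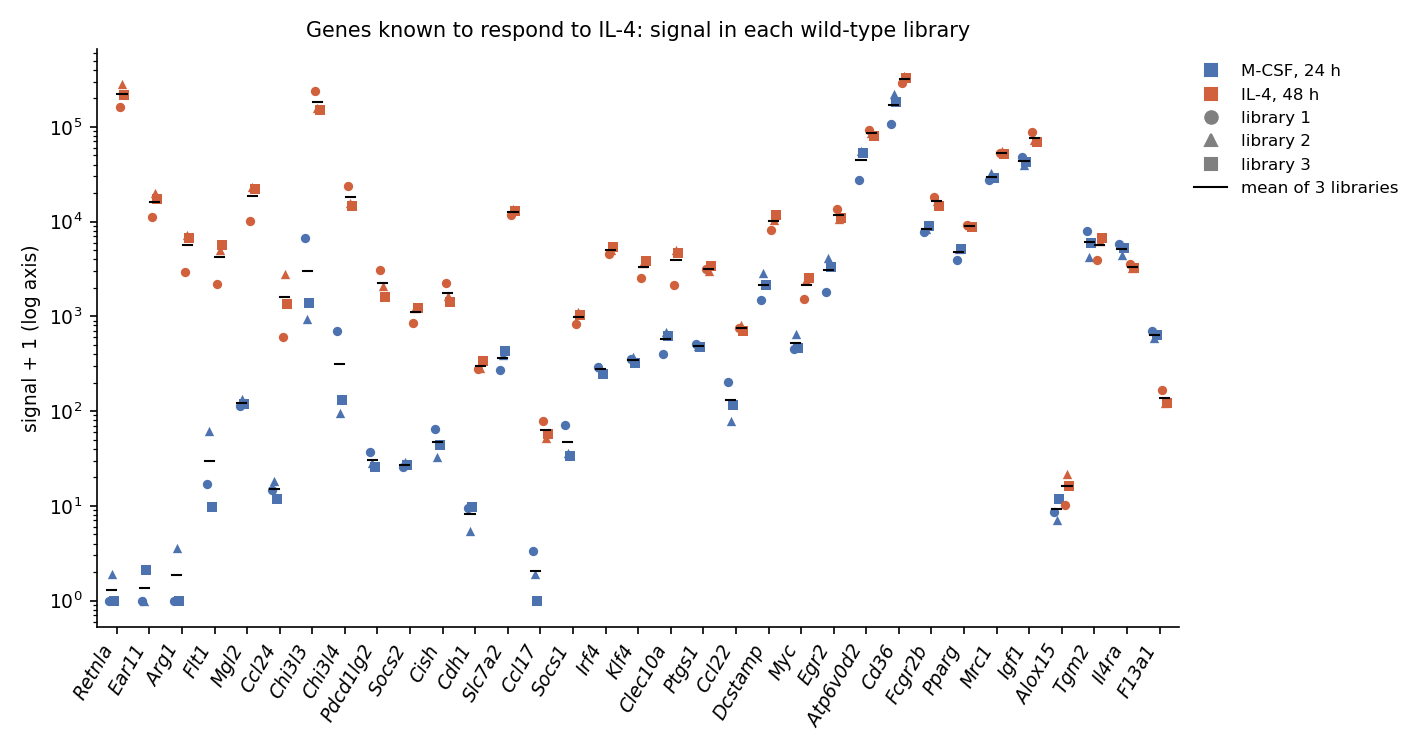
Signal + 1 of the 33 hallmark genes in each of the 6 WT libraries on a log axis, with M-CSF in blue, IL-4 in orange, a symbol for each library number and a bar at the mean of 3 libraries. The groups lie several orders of magnitude apart for Retnla, Ear11 and Arg1, lie close together for Mrc1 and Igf1, and overlap for Tgm2.

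The receptor and its signalling chain were not raised as a group. Of 13 tested genes of the IL-4 receptor and its signalling, 2 were higher and 6 lower, with a median log2 fold change of -0.30. Il4ra itself read 5735, 4404 and 5223 in the M-CSF libraries and 3521, 3257 and 3227 in the IL-4 libraries, a log2 fold change of -0.61 (SE 0.17 and adjusted p = 0.01). Il13ra1, the chain of the type II receptor, read 1311, 785 and 959 under M-CSF and 522, 295 and 314 under IL-4, a log2 fold change of -1.45 (SE 0.25 and adjusted p = 0.00025). Stat6 read 13371, 13024 and 13547 under M-CSF and 11316, 11731 and 11765 under IL-4, which is a small decrease with little spread (log2 change -0.20, SE 0.05, adjusted p = 0.0068). In each of these genes the IL-4 libraries lay below the M-CSF libraries. The kinases moved in opposite directions, with Jak2 going from 2641, 2369 and 2361 to 7617, 6241 and 5577 (log2 change 1.39, SE 0.15, adjusted p = 2.7e-06) and Jak3 going from 1312, 1349 and 1537 to 719.7, 789.6 and 709 (log2 change -0.92, SE 0.14, adjusted p = 0.00013). Il2rg, Jak1, Tyk2, Irs1 and Irs2 did not pass it, and their values lay between -0.62 (Irs1) and 0.06 (Jak1). The tyrosine phosphatase Ptpn6 (SHP-1), which dampens such receptors, was lower with a log2 fold change of -0.80 (SE 0.10 and adjusted p = 2e-05), and Ptpn2 was higher with 0.53 (SE 0.08 and adjusted p = 8.1e-05).

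Feedback inhibitors of cytokine receptors were among the clearest increases. Of the 8 SOCS family genes 5 were higher and 1 lower. Socs2 read 24.6, 28 and 26 in the M-CSF libraries and 848, 1211 and 1236 in the IL-4 libraries, a log2 fold change of 5.32 (SE 0.31 and adjusted p = 8.8e-09). Cish read 63, 31.5 and 43.3 under M-CSF and 2239, 1647 and 1429 under IL-4, a log2 fold change of 5.27 (SE 0.27 and adjusted p = 2.2e-09), and Socs1 read 70.7, 34.9 and 32.5 under M-CSF and 833, 1122 and 1019 under IL-4, a log2 fold change of 4.48 (SE 0.34 and adjusted p = 1.1e-07). Socs6, which was already well expressed, went from 4085, 3990.1 and 4334 to 9214, 10783 and 9761 (log2 change 1.26, SE 0.08, adjusted p = 1.9e-08). None of these genes overlapped between the groups. Socs3, the inhibitor of gp130 receptors, did not pass the test at -0.91 (adjusted p = 0.12). The lower member, Socs7, changed by -0.21 and lost its call without M-CSF library 1 or 2 or IL-4 library 1 or 2 (adjusted p = 0.1, 0.0615, 0.0791 and 0.133).

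Transcription factors were counted by family. Of 7 STAT genes 5 were lower, and of 8 interferon regulatory factors 4 were lower and 2 higher. Irf4, the interferon regulatory factor tied to IL-4, read 289.6, 289 and 244 in the M-CSF libraries and 4562, 4988 and 5437 in the IL-4 libraries, a log2 fold change of 4.18 (SE 0.28 and adjusted p = 3.2e-08). Irf7, the master factor of type I interferon, read 8764, 1570 and 1637 under M-CSF and 392, 221 and 189 under IL-4, a log2 fold change of -3.47 (SE 0.61 and adjusted p = 0.00032), with a M-CSF library 1 several times higher than the other M-CSF libraries. Irf8, a lineage factor of macrophages, read 11264, 11657 and 12983 under M-CSF and 6552, 6403 and 6103 under IL-4, a log2 fold change of -0.91 (SE 0.09 and adjusted p = 1.7e-06). Irf4 was thus above and Irf7 and Irf8 below M-CSF without overlap. Stat4 fell from 261, 94.4 and 99.6 to 31.6, 19.1 and 26.9 (log2 change -2.37, SE 0.42, adjusted p = 0.00035). Calls of Stat5a, Irf2 and Irf3 were small in size and were lost without single libraries, including IL-4 library 2 (adjusted p = 0.0879, 0.151 and 0.0535). The others were lost as follows: Stat5a without each library in turn (0.0506 to 0.095), Irf2 without M-CSF library 1 or 3 or IL-4 library 3 (0.104, 0.0733 and 0.0723) or by edgeR (0.0516), and Irf3 without M-CSF library 2 or 3 or IL-4 library 1 (0.0618, 0.0869 and 0.103).

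Among 25 factors linked to IL-4, 10 were higher and 6 lower. Batf3, a factor of the AP-1 group, read 156, 177 and 147 in the M-CSF libraries and 1248, 1454 and 1441 in the IL-4 libraries, a log2 fold change of 3.10 (SE 0.13 and adjusted p = 2.6e-10). Klf4, a zinc finger factor, read 351, 371 and 320.4 under M-CSF and 2509, 3641 and 3796 under IL-4, a log2 fold change of 3.23 (SE 0.23 and adjusted p = 4.9e-08). Ppargc1b, a coactivator of mitochondrial genes, read 79.1, 75.1 and 74.7 under M-CSF and 539.5, 556 and 608 under IL-4, a log2 fold change of 2.88 (SE 0.23 and adjusted p = 1.9e-07). No IL-4 library of these genes overlapped with M-CSF. Myc went from 448, 646 and 461 to 1516, 2396 and 2518 (log2 change 2.03, SE 0.24, adjusted p = 6.9e-06). Rxra, the shared partner of nuclear receptors, was lower (log2 change -0.74, SE 0.13, adjusted p = 0.00039), and so was Ppard (log2 change -0.61, SE 0.16, adjusted p = 0.007). Of 19 lineage factors 2 were higher and 6 lower. Maf, a factor of resident macrophages, read 11783, 11455 and 11997 in the M-CSF libraries and 1003, 1201 and 1161 in the IL-4 libraries, a log2 fold change of -3.39 (SE 0.24 and adjusted p = 5.1e-08). Id3, an inhibitor of DNA binding, read 148, 279 and 451 under M-CSF and 22.3, 30.7 and 53.9 under IL-4, a log2 fold change of -2.95 (SE 0.44 and adjusted p = 7.4e-05). Tfec, of the Mitf family, went from 1420.4, 884 and 911 to 3261, 2784 and 2576 (log2 change 1.45, SE 0.16, adjusted p = 5.1e-06).

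Of 20 tested arginine, nitric oxide and polyamine genes 11 were higher and 3 lower, with a median of 0.51. Slc7a2, the arginine transporter CAT2, read 270.4, 394 and 433 in the M-CSF libraries and 11843, 13413 and 12913 in the IL-4 libraries, a log2 fold change of 5.14 (SE 0.23 and adjusted p = 3.5e-10). Il4i1, a secreted amino acid oxidase named for its induction by IL-4, read 86, 85.6 and 75.8 under M-CSF and 1473, 1878 and 2311 under IL-4, a log2 fold change of 4.48 (SE 0.50 and adjusted p = 4.5e-06). Adc, an antizyme inhibitor, read 104, 80.4 and 85.5 under M-CSF and 279.5, 284 and 260 under IL-4, a log2 fold change of 1.61 (SE 0.13 and adjusted p = 1.6e-07). The groups did not overlap for these genes. Paox, which breaks polyamines down, was lower (log2 change -0.80, SE 0.23, adjusted p = 0.011). The other lower members, Smox and Oaz2, lost their calls without M-CSF library 1 (adjusted p = 0.0875 and 0.0634) or IL-4 library 3 (0.0517 and 0.126), and without either library the list had 1 lower member. Without IL-4 library 2 Smox had an adjusted p of 0.0577, and without IL-4 library 1, M-CSF library 2 or M-CSF library 3 Oaz2 had 0.0793, 0.0523 and 0.0874. Nos2, inducible nitric oxide synthase, was chosen after its values were seen. It read 3.8, 7.9 and 6.5 under M-CSF and 60.4, 40.6 and 15.2 under IL-4, a log2 fold change of 2.34 (SE 0.54 and adjusted p = 0.0028), so it was higher under IL-4 at a low level.

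Chemokine ligands divided by class. Of 15 CC chemokines 9 were higher and 1 lower, and of 13 genes of the CXC list, Cx3cl1 included, 6 were lower and 0 higher. The medians were 1.62 and -0.98. Without M-CSF library 1, or without IL-4 library 2, the CC counts became 6 higher and 0 lower. Ccl24 (eotaxin-2), which attracts eosinophils, read 13.8, 17.5 and 10.8 in the M-CSF libraries and 607, 2800.2 and 1346 in the IL-4 libraries, a log2 fold change of 6.48 (SE 0.60 and adjusted p = 7.8e-07). Ccl22, a ligand of Ccr4 on type 2 T cells, read 202, 77.8 and 114 under M-CSF and 758, 801 and 697 under IL-4, a log2 fold change of 2.62 (SE 0.58 and adjusted p = 0.0019). Ccl17, the other Ccr4 ligand, read 2.3, 0.9 and 0 under M-CSF and 78, 51.4 and 56.2 under IL-4, at least 22.7-fold higher (adjusted p = 4.4e-06). In each of these chemokines the IL-4 libraries lay above the M-CSF libraries, and those of Ccl24 spread over a wide range. Ccl9, which was abundant at the start, went from 26706, 33857 and 28028 to 72564, 107245 and 94104 (log2 change 1.62, SE 0.21, adjusted p = 1.9e-05). Ccl8 was low but went from 3.1, 4.4 and 4.3 to 39, 71.3 and 43.3 (log2 change 3.36, SE 0.49, adjusted p = 6e-05). The lower member was Ccl5, with 705, 234 and 287 under M-CSF and 146, 114 and 84.3 under IL-4 (log2 change -1.69, SE 0.58, adjusted p = 0.028). Its call was lost without M-CSF library 1 (adjusted p = 0.134), IL-4 library 2 (0.064) or IL-4 library 3 (0.0942).

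On the CXC side, Cxcl10, an interferon-induced ligand of Cxcr3, read 486, 135 and 96.3 in the M-CSF libraries and 6.5, 10.8 and 4.7 in the IL-4 libraries, a log2 fold change of -4.55 (SE 0.59 and adjusted p = 2e-05). Cxcl2, a neutrophil attractant, read 87.6, 47.2 and 73.6 under M-CSF and 8.4, 5.8 and 4.7 under IL-4, a log2 fold change of -3.26 (SE 0.35 and adjusted p = 3.1e-06). Cxcl16, a membrane-bound ligand, read 18418, 9072 and 11402 under M-CSF and 5409, 3753 and 3332 under IL-4, a log2 fold change of -1.60 (SE 0.25 and adjusted p = 0.00011). Pf4, platelet factor 4, went from 1772, 2094 and 1998 to 639.8, 747 and 689 (log2 change -1.50, SE 0.22, adjusted p = 5.7e-05). None of these groups overlapped, and M-CSF library 1 was the highest for Cxcl10, Cxcl2 and Cxcl16.

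**Figure D2:**
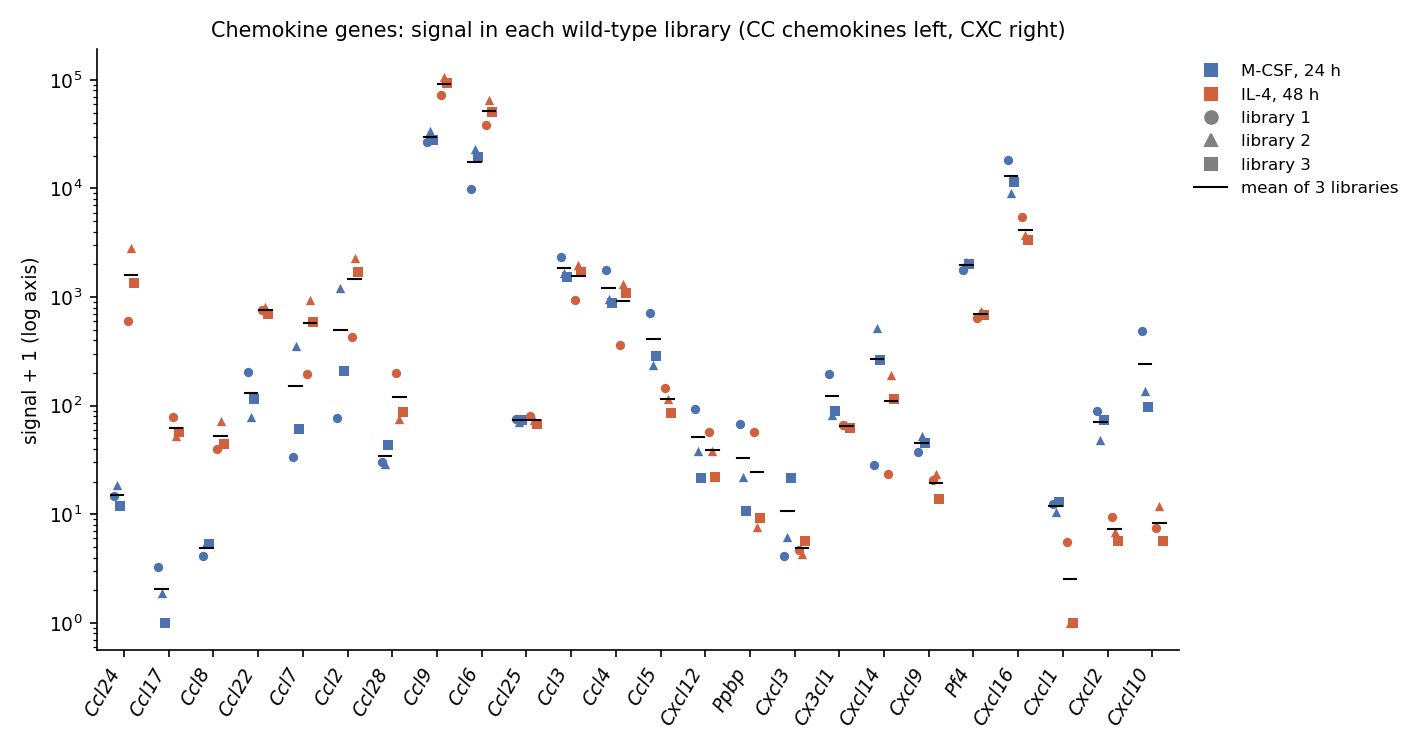
Signal + 1 of 13 CC chemokines and 11 genes of the CXC list in each of the 6 WT libraries on a log axis, with M-CSF in blue and IL-4 in orange and a bar at the mean of 3 libraries. Listed genes under a signal of 10 in all 6 libraries are not drawn. Ccl24, Ccl17 and Ccl22 stand higher under IL-4, and Cxcl10, Cxcl2 and Cxcl16 stand lower.

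Receptors for chemokines and other attractants were mostly lower, 10 of 18 against 1 higher, with a median of -1.05. Cx3cr1, the fractalkine receptor, read 1354, 715 and 748 in the M-CSF libraries and 11.1, 12.4 and 8.2 in the IL-4 libraries, a log2 fold change of -6.30 (SE 0.34 and adjusted p = 3.5e-09). Cxcr3 read 476, 191 and 246 under M-CSF and 13.9, 16.6 and 17.6 under IL-4, a log2 fold change of -4.06 (SE 0.45 and adjusted p = 4.5e-06). C5ar1, the receptor of the complement fragment C5a, was abundant and read 21602, 18900.4 and 20429.7 under M-CSF and 3492, 2939.6 and 3162 under IL-4, a log2 fold change of -2.67 (SE 0.17 and adjusted p = 1.8e-08). The IL-4 libraries of these receptors lay far below the M-CSF libraries. C5ar2, the second C5a receptor, went from 898, 889 and 939 to 423, 371 and 376 (log2 change -1.22, SE 0.14, adjusted p = 8e-06). Ccr1 was the higher member, going from 2438, 3659.9 and 3459.6 to 5036, 6403 and 6099 (log2 change 0.89, SE 0.21, adjusted p = 0.0027). Ccr2, the receptor of inflammatory monocytes, did not pass the test (log2 change 0.17, SE 0.26, adjusted p = 0.62).

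C-type lectins, those named above included, moved both ways, 10 higher and 6 lower of 27. Clec4e (Mincle), a receptor for mycobacterial glycolipid, read 1841, 513 and 744 in the M-CSF libraries and 124, 72.2 and 82 in the IL-4 libraries, a log2 fold change of -3.28 (SE 0.40 and adjusted p = 1.3e-05). Clec4d, its partner, read 30016, 17708 and 24913 under M-CSF and 7707, 3165 and 3584 under IL-4, a log2 fold change of -2.41 (SE 0.36 and adjusted p = 8.6e-05). Clec12a, an inhibitory receptor for crystals, read 31159, 29462 and 30083 under M-CSF and 9503, 11976 and 12480.3 under IL-4, a log2 fold change of -1.43 (SE 0.14 and adjusted p = 1.1e-06). All IL-4 libraries of these genes were below all M-CSF libraries. On the higher side, Clec5a went from 1407, 676 and 679.8 to 2724, 2306 and 2652 (log2 change 1.56, SE 0.23, adjusted p = 6.8e-05) and Clec4b1 from 940.3, 876 and 866 to 2415, 3117 and 3176 (log2 change 1.69, SE 0.15, adjusted p = 6.5e-07).

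Eicosanoid genes changed at several steps of the prostaglandin pathway, 11 higher and 5 lower of 28. Ptgs1 (cyclooxygenase 1), which makes the common precursor, read 512, 486 and 475 in the M-CSF libraries and 3165, 2984 and 3373 in the IL-4 libraries, a log2 fold change of 2.69 (SE 0.20 and adjusted p = 8.1e-08). Ptgs2 (cyclooxygenase 2) did not pass the test (log2 change 0.39, SE 0.51, adjusted p = 0.56). Hpgds, which makes prostaglandin D, read 14448, 12304 and 13171 under M-CSF and 3537, 2449 and 2584 under IL-4, a log2 fold change of -2.24 (SE 0.18 and adjusted p = 2.3e-07). Hpgd, which inactivates prostaglandins, read 908, 1513 and 1464 under M-CSF and 112, 89.6 and 98.4 under IL-4, a log2 fold change of -3.65 (SE 0.28 and adjusted p = 1.1e-07). Ptgs1 was thus above and Hpgds and Hpgd below without overlap. Of the receptors, Ptgir for prostacyclin went from 875, 481 and 477 to 3582, 2981 and 3439.8 (log2 change 2.50, SE 0.26, adjusted p = 2.3e-06) and Ptger2 for prostaglandin E from 741, 834 and 841 to 2818, 2128 and 1979 (log2 change 1.50, SE 0.13, adjusted p = 3.7e-07). Ptger4, another receptor for prostaglandin E, went the other way, from 1183, 804 and 878 to 267, 339 and 367 (log2 change -1.55, SE 0.20, adjusted p = 1.6e-05).

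Genes of cell fusion and of osteoclasts, which share a fusion machinery with giant cells, were higher for 11 and lower for 5 of 26. Ocstamp, a membrane protein needed for fusion, read 3.1, 54.2 and 13 in the M-CSF libraries and 6467, 8801 and 10154 in the IL-4 libraries, a log2 fold change of 9.15 (SE 0.70 and adjusted p = 1.1e-07). Dcstamp, its relative, read 1477, 2877 and 2128 under M-CSF and 8137, 10269.5 and 11721 under IL-4, a log2 fold change of 2.25 (SE 0.35 and adjusted p = 0.00013). Car2, a carbonic anhydrase of osteoclasts, read 9.2, 28 and 13 under M-CSF and 451, 663 and 583 under IL-4, a log2 fold change of 5.12 (SE 0.41 and adjusted p = 1.7e-07). Acp5, the tartrate-resistant phosphatase, went from 711, 893 and 891 to 5517, 3106 and 2984 (log2 change 2.17, SE 0.23, adjusted p = 3.7e-06), and the groups did not overlap in these genes. The lower members included Tnfrsf11a, the receptor RANK, with 4947, 5169.6 and 4484 under M-CSF and 3299.5, 3455 and 3429 under IL-4 (log2 change -0.52, SE 0.07, adjusted p = 3.3e-05), and Nfatc1, the main factor of osteoclasts (log2 change -0.72, SE 0.09, adjusted p = 8.9e-06).

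Of 27 genes of Toll-like receptors, other microbial sensors and their accessory and signalling proteins, 17 were lower and 3 higher, with a median of -0.44. The adaptor Ticam1, 1 of the 3 higher, lost its call without M-CSF library 2 (adjusted p = 0.0548). Tlr2, the receptor for lipoproteins, read 4612, 2248 and 2581 in the M-CSF libraries and 518, 453 and 638 in the IL-4 libraries, a log2 fold change of -2.49 (SE 0.20 and adjusted p = 1.6e-07). Tlr9, the receptor for unmethylated DNA, read 2604, 1599 and 1512 under M-CSF and 408, 457 and 472 under IL-4, a log2 fold change of -2.05 (SE 0.17 and adjusted p = 1.9e-07). Cd14, the co-receptor for LPS, read 17509.5, 12837 and 13776 under M-CSF and 1407, 2706 and 2861 under IL-4, a log2 fold change of -2.72 (SE 0.26 and adjusted p = 9.2e-07). The IL-4 values of each lay below the M-CSF values. Tlr5, the flagellin receptor, had 29.2, 21 and 22.7 in the M-CSF libraries and no read in any IL-4 library, which makes it at least 8.3-fold lower (adjusted p = 2.3e-07). Tlr4, the LPS receptor itself, rose from 5586, 5506 and 5849 to 7126, 7882 and 7950.1 (log2 change 0.44, SE 0.13, adjusted p = 0.011). Tlr12 rose at a low level from 3.1, 7 and 5.4 to 55.7, 31.5 and 30.5 (log2 change 2.70, SE 0.41, adjusted p = 8.6e-05).

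Of 10 Fc receptor genes 4 were lower and 2 higher, and of the 2 higher, Fcgr2b kept its call without any 1 library. Fcgr1, the high-affinity receptor for IgG, read 15316, 9265 and 10262 in the M-CSF libraries and 1443, 1355 and 1176 in the IL-4 libraries, a log2 fold change of -3.10 (SE 0.23 and adjusted p = 1e-07). Fcgrt, the neonatal Fc receptor, read 5885, 6516 and 7140 under M-CSF and 1781, 2566 and 2430.2 under IL-4, a log2 fold change of -1.54 (SE 0.27 and adjusted p = 0.00031). Fcgr2b, the inhibitory receptor, read 7733, 8340.2 and 8868 under M-CSF and 18068, 16295 and 14617 under IL-4, a log2 fold change of 0.97 (SE 0.24 and adjusted p = 0.0039). The activating and inhibitory receptors Fcgr1 and Fcgr2b thus moved in opposite directions, both without overlap. The other higher member, Fcrls, had an adjusted p of 0.018, which rose to between 0.0512 and 0.0688 without M-CSF library 2 or 3 or IL-4 library 2 or 3.

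Of 19 integrin genes 6 were higher and 7 lower, against 22.9% and 21.1% of all tested genes. Itgax (CD11c), also a marker of dendritic cells, read 9233, 26850.1 and 19746 in the M-CSF libraries and 121387, 115166 and 121402 in the IL-4 libraries, a log2 fold change of 2.81 (SE 0.33 and adjusted p = 7.3e-06). Itgad (CD11d) read 929, 1563 and 1293 under M-CSF and 6123, 5681 and 6169.9 under IL-4, a log2 fold change of 2.28 (SE 0.22 and adjusted p = 1.2e-06). Itgb2, the beta chain that both pair with, read 53583, 64065 and 59998 under M-CSF and 121161, 112155 and 119422 under IL-4, a log2 fold change of 0.99 (SE 0.11 and adjusted p = 4.6e-06). Itgam (CD11b), another partner of Itgb2, did not pass the test (log2 change 0.44, SE 0.21, adjusted p = 0.11). Itgal, a further partner, fell from 3621, 1306 and 1488 to 842, 450.4 and 522 (log2 change -1.72, SE 0.33, adjusted p = 0.00069). Itgb8, which activates latent TGF beta, read 7.7, 15.7 and 9.7 in the M-CSF libraries and 189, 143 and 196 in the IL-4 libraries, a log2 fold change of 3.92 (SE 0.25 and adjusted p = 1.7e-08). Itga9 read 1499.5, 868 and 882 under M-CSF and 76.1, 84.6 and 63.2 under IL-4, a log2 fold change of -3.80 (SE 0.36 and adjusted p = 9.3e-07), and Itga6, a laminin receptor chain, 10689, 10021 and 10586 under M-CSF and 2285, 2432 and 2381 under IL-4, a log2 fold change of -2.14 (SE 0.11 and adjusted p = 3.2e-09). Itgb8 lay above and Itga9 and Itga6 below, with no overlap. Of the other dendritic cell markers, Zbtb46 went from 18.4, 10.5 and 18.4 to 45.5, 75.5 and 87.8 (log2 change 2.06, SE 0.37, adjusted p = 0.00038), and the summed signal of the 8 markers was 9602 to 27160 under M-CSF and 115414 to 121738 under IL-4, nearly all of it Itgax. Flt3 and Dpp4 of that list were lower, and Flt3 lost its call without IL-4 library 2 (0.0995), IL-4 library 3 (0.178) or any M-CSF library (0.0625 to 0.0714) and by edgeR (0.157). The part of dendritic cells in the Itgax difference was not tested.

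Scavenger receptors and receptors for dying cells were lower for 11 and higher for 4 of 23. Olr1, the receptor for oxidised lipoprotein LOX-1, read 25.4, 14 and 17.3 in the M-CSF libraries and 353, 269 and 245 in the IL-4 libraries, a log2 fold change of 3.89 (SE 0.36 and adjusted p = 8.7e-07). Marco, a receptor for bacteria and particles, read 454, 83.9 and 75.8 under M-CSF and 9.3, 5 and 3.5 under IL-4, a log2 fold change of -4.46 (SE 0.86 and adjusted p = 0.00067). Cd5l, a secreted scavenger protein, read 49050.1, 27265 and 35774 under M-CSF and 5394, 4993 and 5447 under IL-4, a log2 fold change of -2.78 (SE 0.24 and adjusted p = 3.8e-07). Olr1 was above and Marco and Cd5l were below without overlap, and M-CSF library 1 held the most Marco. Of the kinases that recognise dying cells, Axl went from 11474, 6559.6 and 8632 to 2595, 1932 and 2901 (log2 change -1.83, SE 0.19, adjusted p = 1.8e-06) and Mertk from 8113, 7306 and 8074 to 3479, 3075 and 2659 (log2 change -1.36, SE 0.18, adjusted p = 3.3e-05), while Tyro3 rose at a low level from 6.9, 14.9 and 7.6 to 25.1, 39.8 and 30.5 (log2 change 1.65, SE 0.41, adjusted p = 0.0041). Pros1, protein S, a ligand that bridges dying cells to them, rose from 3919, 4274 and 3990 to 7315, 8206 and 8145 (log2 change 0.96, SE 0.20, adjusted p = 0.0012).

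Matrix, coagulation and repair genes were higher for 15 and lower for 11 of 44, against 22.9% and 21.1% of all tested genes. F10, coagulation factor X, read 1146, 1685 and 1573 in the M-CSF libraries and 12035, 8268 and 8224 in the IL-4 libraries, a log2 fold change of 2.69 (SE 0.17 and adjusted p = 1.7e-08). F7, factor VII, its neighbour and activator, read 1329.7, 2098 and 1939 under M-CSF and 10859.6, 8237 and 8475 under IL-4, a log2 fold change of 2.38 (SE 0.16 and adjusted p = 4.2e-08). Mmp19, a matrix metalloproteinase, read 2836, 3164 and 3069.9 under M-CSF and 15547, 13822 and 12258 under IL-4, a log2 fold change of 2.19 (SE 0.13 and adjusted p = 1.1e-08). IL-4 library 1 was the highest of its group in each, and no library overlapped. Thbs1, thrombospondin 1, read 11143, 5834 and 7529.7 under M-CSF and 1214, 761 and 669 under IL-4, a log2 fold change of -3.21 (SE 0.23 and adjusted p = 6.9e-08). Thbd, thrombomodulin, which restrains coagulation, went from 834, 853 and 1033 to 530.3, 449.6 and 449 (log2 change -0.92, SE 0.12, adjusted p = 3e-05), and Tgfb3 from 129, 38.4 and 44.4 to 12.1, 7.5 and 10.5 (log2 change -2.50, SE 0.46, adjusted p = 0.00046). Fn1 (fibronectin) and Mmp12 (macrophage elastase) were chosen after their values were seen. Fn1 read 797, 1034 and 535 under M-CSF and 8818, 25748 and 23019 under IL-4, a log2 fold change of 4.51 (SE 0.48 and adjusted p = 3.2e-06), and Mmp12 read 72659, 165117 and 126366 under M-CSF and 550977, 575677 and 560442 under IL-4, a log2 fold change of 2.29 (SE 0.29 and adjusted p = 1.8e-05).

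Cytokine receptors were balanced, 12 higher and 12 lower of 39, while of 24 cytokines and antagonists 0 were higher and 11 lower. Of all tested genes 22.9% were higher and 21.1% lower. Among the 24, 6 had a signal under 10 in all 6 WT libraries, 1 of them at 0 in all 6. Il31ra, the IL-31 receptor chain, was near 0 in the M-CSF libraries at 0, 4.4 and 0 and read 903, 1048 and 1052 in the IL-4 libraries, a log2 fold change of 9.15 (SE 0.56 and adjusted p = 1.1e-08). Il1rl2, the IL-36 receptor, read 74.5, 73.4 and 73.6 in the M-CSF libraries and 697, 611 and 662 in the IL-4 libraries, a log2 fold change of 3.13 (SE 0.20 and adjusted p = 2.1e-08). Il6st, the shared signalling chain gp130, read 7765, 9601 and 9805 under M-CSF and 28197, 23504 and 22247 under IL-4, a log2 fold change of 1.44 (SE 0.13 and adjusted p = 7.6e-07). The 3 IL-4 values of each gene were close together and above every M-CSF value. Tgfbr2 and Tgfbr1, which form the TGF beta receptor, fell from 9359.7, 8860 and 9776 to 3627, 3145 and 3118 (log2 change -1.50, SE 0.11, adjusted p = 8.1e-08) and from 16409, 14751 and 16298 to 6788, 5685 and 6480.3 (log2 change -1.33, SE 0.12, adjusted p = 4e-07). Il17ra fell from 1689, 1506 and 1609.6 to 709.5, 601 and 595 (log2 change -1.34, SE 0.09, adjusted p = 3.3e-08). Among ligands, Il16 fell from 2089.5, 1709 and 1973 to 322, 314 and 375 (log2 change -2.51, SE 0.30, adjusted p = 1e-05) and Osm, oncostatin M, from 430.2, 256 and 336 to 122, 84.6 and 87.8 (log2 change -1.77, SE 0.21, adjusted p = 6.9e-06). Il18 and Tnf also fell, with log2 fold changes of -1.45 (SE 0.20 and adjusted p = 3.5e-05) and -1.11 (SE 0.18 and adjusted p = 0.00016).

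Co-stimulatory and checkpoint genes, mostly ligands with some receptors, were lower for 12 and higher for 3 of 23, and of the 3 higher, Pdcd1lg2 was the one whose call held without any 1 library. Cd86, the ligand of CD28 and CTLA-4, read 1907, 773 and 867 in the M-CSF libraries and 117, 167 and 137 in the IL-4 libraries, a log2 fold change of -2.96 (SE 0.34 and adjusted p = 7.1e-06). Icosl, the ligand of ICOS, read 479, 255 and 248 under M-CSF and 39, 30.7 and 34 under IL-4, a log2 fold change of -3.14 (SE 0.35 and adjusted p = 5e-06). Pdcd1lg2, described above, thus moved against Cd86 and Icosl. The 2 other higher members, Cd200r1 and Cd276, lost their calls without IL-4 library 2 (adjusted p = 0.0867 and 0.0779), IL-4 library 3 (0.0939 and 0.112), M-CSF library 2 (0.0502 and 0.106) or M-CSF library 3 (0.0658 and 0.0991), which left 1 higher member. Cd200r1 also lost it without M-CSF library 1 (0.104) and Cd276 without IL-4 library 1 (0.063).

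Mitochondrial genes rose together by small amounts. Of 76 subunits of oxidative phosphorylation 67 were higher and 0 lower, with a median log2 fold change of 0.55 against 0.003 for all genes, and leaving out any 1 library gave 63 to 65 higher. Atp5b, the catalytic subunit of ATP synthase, read 19661, 22464 and 21192 in the M-CSF libraries and 42007, 47627 and 47287 in the IL-4 libraries, a log2 fold change of 1.11 (SE 0.09 and adjusted p = 2e-07). Cycs, cytochrome c, read 2697, 2634 and 2459 under M-CSF and 5356, 5569.8 and 5864 under IL-4, a log2 fold change of 1.11 (SE 0.09 and adjusted p = 2.5e-07). Cox7b of cytochrome oxidase read 2435, 2831 and 2527 under M-CSF and 5332, 5489 and 5576 under IL-4, a log2 fold change of 1.08 (SE 0.07 and adjusted p = 4e-08). These changes were about 2-fold, with libraries of a group close together and no overlap. Of 24 tricarboxylic acid cycle genes 20 were higher, among them citrate synthase (Cs), which went from 6884, 7093 and 6767 to 11189, 11587 and 11855 (log2 change 0.74, SE 0.07, adjusted p = 1.1e-06). Suclg2, the GTP-linked subunit of succinyl-CoA ligase, was the lower member, going from 1048, 976 and 968 to 463, 668 and 592 (log2 change -0.81, SE 0.15, adjusted p = 0.0006), and without IL-4 library 2 the list had 2 lower members. Of 38 genes of lipid uptake and fatty acid oxidation 19 were higher and 3 lower. Etfa, which passes electrons from fatty acid oxidation to the respiratory chain, went from 2517, 2988 and 2938 to 5006, 5339 and 5697 (log2 change 0.93, SE 0.10, adjusted p = 2.4e-06), and Hadha of the trifunctional enzyme from 6343, 7811 and 7390.1 to 9533, 10294 and 9863 (log2 change 0.47, SE 0.07, adjusted p = 0.0001). Cpt1a, which controls fatty acid entry into mitochondria, did not pass the test (log2 change -0.05, SE 0.09, adjusted p = 0.66). Lipe was lower (log2 change -0.37, SE 0.09, adjusted p = 0.0039). The other lower members, Pdk4 and Pnpla2, both lost their calls without IL-4 library 3 (adjusted p = 0.051 and 0.188), Pnpla2 also without IL-4 library 2 (0.153), M-CSF library 2 (0.0703) or M-CSF library 3 (0.179), and with library number as a block (0.0522).

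Glycolysis genes also rose, 16 higher and 4 lower of 26 with a median of 0.51. Within the phosphofructokinase family, Pfkp read 3618, 3697 and 3713 in the M-CSF libraries and 11039.7, 11072 and 11497 in the IL-4 libraries, a log2 fold change of 1.61 (SE 0.12 and adjusted p = 6.1e-08), while Pfkm read 665, 643 and 665 under M-CSF and 458, 440.4 and 499 under IL-4, a log2 fold change of -0.50 (SE 0.10 and adjusted p = 0.00067). The glucose transporters differed in the same way, Slc2a6 going from 1196, 975 and 826 to 2865, 2668 and 3352 (log2 change 1.58, SE 0.17, adjusted p = 4.4e-06) and Slc2a3 from 498, 373 and 352 to 199, 119 and 118 (log2 change -1.51, SE 0.27, adjusted p = 0.00041). Slc16a1, a lactate transporter, went from 525, 689 and 721 to 1937, 2111 and 2123 (log2 change 1.68, SE 0.19, adjusted p = 5.1e-06). Pfkp and Pfkm, and the transporters Slc2a6 and Slc2a3, thus moved in opposite directions without overlap. Of 24 genes of serine, one-carbon and pentose phosphate metabolism 16 were higher and 1 lower. Atic, the last enzyme of purine synthesis, went from 1949.7, 2667 and 2376 to 5100.1, 6215 and 6266 (log2 change 1.34, SE 0.15, adjusted p = 5.5e-06).

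Genes that make proteins rose as well. Of 20 tRNA synthetases 15 were higher and 0 lower (median 0.47), and of 31 ribosome biogenesis genes 25 were higher and 0 lower (median 0.66). Rars, the arginine synthetase, read 2984, 2993 and 2908 in the M-CSF libraries and 6999, 8291 and 7929 in the IL-4 libraries, a log2 fold change of 1.38 (SE 0.09 and adjusted p = 2.9e-08). Rrs1, a ribosome assembly factor, read 673, 805 and 844 under M-CSF and 1601, 1593 and 1580 under IL-4, a log2 fold change of 1.05 (SE 0.15 and adjusted p = 5.3e-05). Dkc1, which modifies ribosomal RNA, read 414, 523 and 454 under M-CSF and 708, 978 and 1110.3 under IL-4, a log2 fold change of 0.99 (SE 0.13 and adjusted p = 3.3e-05). The groups did not overlap. Amino acid transporters were higher for 9 and lower for 5 of 21. Slc1a5, a glutamine transporter, went from 1262, 1616 and 1342 to 3879.9, 4134 and 4179 (log2 change 1.54, SE 0.16, adjusted p = 3e-06), and Slc7a11, which imports cystine, from 1424, 1484 and 1380.2 to 3671, 2783 and 2763 (log2 change 1.09, SE 0.18, adjusted p = 0.00017). Slc43a2 went down from 34688, 33552 and 36153 to 15303, 11565 and 11727 (log2 change -1.45, SE 0.15, adjusted p = 1.7e-06), and so did Slc7a7, which exports arginine and other basic amino acids, from 2157, 1249 and 1291 to 516, 392 and 326 (log2 change -1.90, SE 0.18, adjusted p = 1.1e-06). The arginine transporters Slc7a2 and Slc7a7 thus changed in opposite directions.

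**Figure D3:**
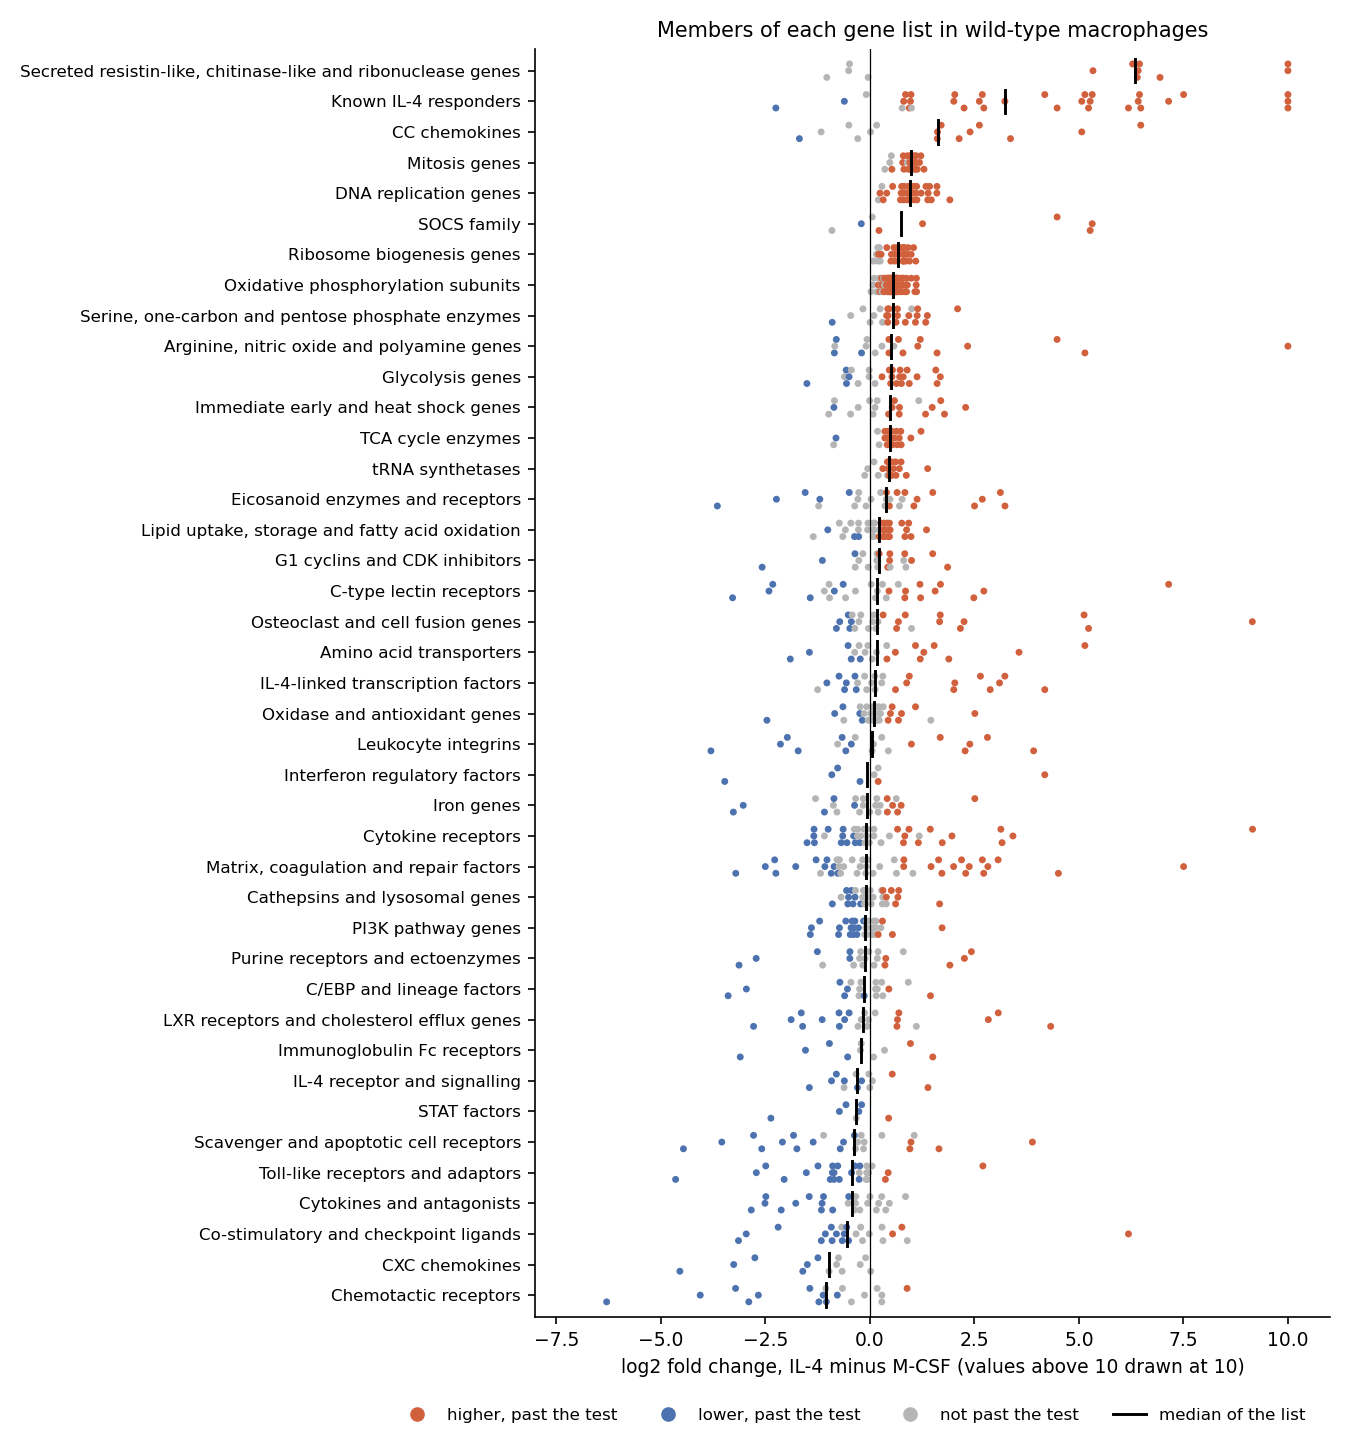
Log2 fold change, IL-4 minus M-CSF, of every tested member of each gene list (1 row per list), coloured by whether the gene was higher, lower or did not pass the test, with a black bar at the list's median. Values above 10 are drawn at 10, and putting genes with no more than 3 reads in 1 group at their bound leaves the medians of these lists as drawn. Oxidative phosphorylation, tRNA synthetase, ribosome, replication and mitosis genes show medians between 0.47 and 0.98 with 0 lower members, and CXC chemokines, attractant receptors and Toll-like receptors lie mostly below 0.

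Replication and mitosis genes were higher, with much variation between libraries. Of 34 replication genes 32 were higher and 0 lower (median 0.95), and of 28 mitosis genes 24 were higher and 0 lower (median 0.98). The mitosis count was 10 without M-CSF library 3 and 15 without IL-4 library 2 or IL-4 library 3. Of 22 genes of G1 cyclins, their kinases, kinase inhibitors and other G1 regulators 8 were higher, 3 lower and 11 not past the test (median 0.21), and leaving out 1 library gave 6 to 11 higher. Ccne1, cyclin E1, read 222, 299.7 and 160.2 in the M-CSF libraries and 547, 902 and 1041 in the IL-4 libraries, a log2 fold change of 1.86 (SE 0.23 and adjusted p = 1.2e-05). Cdc7, the kinase that fires origins, read 139, 152 and 96.3 under M-CSF and 478, 465 and 497 under IL-4, a log2 fold change of 1.91 (SE 0.23 and adjusted p = 1.1e-05). Aurkb, a mitotic kinase, read 482, 557 and 354 under M-CSF and 820, 1348 and 1273 under IL-4, a log2 fold change of 1.29 (SE 0.29 and adjusted p = 0.0019). M-CSF library 3 and IL-4 library 1 were the lowest of their groups for Ccne1 and Aurkb, and the groups did not overlap. The inhibitors of the cell cycle Cdkn1b (p27) and Cdkn1c (p57) were lower, going from 2073, 2081 and 2137 to 784, 1080 and 1021 (log2 change -1.14, SE 0.19, adjusted p = 0.00025) and from 2955, 1388 and 2384 to 557, 296 and 276 (log2 change -2.58, SE 0.50, adjusted p = 0.00074). Of 20 immediate early and heat shock genes 10 were higher. Hsph1, a heat shock protein, went from 1544, 1765 and 1859 to 5135, 6028 and 6699 (log2 change 1.78, SE 0.15, adjusted p = 3.2e-07) and Ier3 from 289.6, 329 and 315 to 1869, 1469.8 and 1285 (log2 change 2.29, SE 0.27, adjusted p = 7.9e-06). Dusp1, the 1 lower member of that list, had an adjusted p of 0.0715 without M-CSF library 1, and without IL-4 library 3 the list had 2 lower members.

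Of 24 iron genes 6 were higher and 5 lower, shares near the 22.9% and 21.1% of all tested genes, and without M-CSF library 3 the higher count was 3. Tfrc, the transferrin receptor that brings iron in, read 10504, 11027 and 9490.1 in the M-CSF libraries and 81373, 54449 and 45871 in the IL-4 libraries, a log2 fold change of 2.51 (SE 0.15 and adjusted p = 8.8e-09). Slc40a1 (ferroportin), the exporter of iron, read 14135, 11579 and 12137 under M-CSF and 2772, 1247 and 1053 under IL-4, a log2 fold change of -3.03 (SE 0.26 and adjusted p = 3.7e-07). Cp, ceruloplasmin, which oxidises exported iron, read 445, 461 and 339 under M-CSF and 38.1, 45.6 and 42.2 under IL-4, a log2 fold change of -3.27 (SE 0.35 and adjusted p = 3.1e-06). The importer was thus higher and the exporter and ceruloplasmin lower without overlap. Fth1, the ferritin heavy chain that stores iron, went from 647853, 699129.8 and 725524 to 458271, 351605 and 341344 (log2 change -0.86, SE 0.14, adjusted p = 0.00021), and Slc11a1 (Nramp1), which pumps metal out of phagosomes, from 22526, 17602 and 20714 to 10801, 8726 and 9089 (log2 change -1.09, SE 0.14, adjusted p = 2.6e-05).

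Of 32 oxidase and antioxidant genes 7 were higher and 5 lower, no more than the 22.9% and 21.1% of all tested genes, and 3 were lower without M-CSF library 3. Cybb, the catalytic subunit of the phagocyte oxidase, read 70819, 63566 and 67567 in the M-CSF libraries and 39115, 36466 and 36997 in the IL-4 libraries, a log2 fold change of -0.84 (SE 0.08 and adjusted p = 1.3e-06). Gpx3, a secreted glutathione peroxidase, read 933, 1246 and 1267 under M-CSF and 235, 201 and 184 under IL-4, a log2 fold change of -2.46 (SE 0.23 and adjusted p = 6.9e-07). Txn1, thioredoxin, read 8801, 8683 and 8384 under M-CSF and 15248, 14572 and 13893 under IL-4, a log2 fold change of 0.76 (SE 0.08 and adjusted p = 4.6e-06). Cybb and Gpx3 lay below and Txn1 above M-CSF in all libraries. Receptors and enzymes of extracellular purines were higher for 5 and lower for 5 of 21, again near the 22.9% and 21.1% of all tested genes. The higher count was 3 without IL-4 library 1, M-CSF library 2 or M-CSF library 3. P2ry1 rose from 392, 626 and 538 to 2699, 2696 and 2840.2 (log2 change 2.43, SE 0.18, adjusted p = 6.5e-08) and Adora2b, an adenosine receptor, from 119.8, 90.9 and 102 to 270.2, 651 and 711 (log2 change 2.26, SE 0.33, adjusted p = 6e-05). P2ry12 and P2ry13, receptors for ADP, fell from 295, 200.1 and 136 to 36.2, 29 and 24.6 (log2 change -2.72, SE 0.31, adjusted p = 6.1e-06) and from 388, 158 and 151 to 38.1, 18.2 and 17.6 (log2 change -3.13, SE 0.37, adjusted p = 9.5e-06). Entpd1 (CD39), which breaks down extracellular ATP, fell from 19982, 19965 and 22578 to 10015, 8524 and 7723 (log2 change -1.26, SE 0.13, adjusted p = 2.7e-06). P2ry1 and P2ry12, both ADP receptors, thus moved in opposite directions.

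Cholesterol genes under the liver X receptors did not move as a block, with 6 higher and 9 lower of 22. Scd1 and Scd2, which desaturate fatty acids, rose from 535, 364 and 303 to 3829.7, 3277 and 2809 (log2 change 3.07, SE 0.36, adjusted p = 7.2e-06) and from 6332, 4498 and 2691 to 29584, 33469 and 28036 (log2 change 2.83, SE 0.29, adjusted p = 2e-06). Apoe, the main lipoprotein of macrophages, read 319183, 362737 and 447333 under M-CSF and 90056, 111435 and 102589 under IL-4, a log2 fold change of -1.88 (SE 0.33 and adjusted p = 0.00034). Its neighbour Apoc2 read 961, 991 and 1189.6 under M-CSF and 202, 142 and 119.5 under IL-4, a log2 fold change of -2.78 (SE 0.24 and adjusted p = 3.2e-07). Mylip, which degrades the LDL receptor, fell from 5355, 4064 and 4968 to 2241, 1408 and 1127 (log2 change -1.64, SE 0.22, adjusted p = 2.7e-05). The Scd genes and the apolipoproteins, which both contain known liver X receptor targets, lay on opposite sides without overlap.

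Of 31 lysosomal genes 7 were higher and 8 lower, shares near the 22.9% and 21.1% of all tested genes, with a median of -0.10. The lower count was 2 without IL-4 library 2 or IL-4 library 3, 3 without M-CSF library 3 and 4 without M-CSF library 1. Glb1, the lysosomal beta-galactosidase, rose from 5021, 4837 and 4675 to 7477, 7466 and 7299 (log2 change 0.61, SE 0.06, adjusted p = 1.4e-06), and cathepsin K (Ctsk) rose from 1135, 1512 and 1514 to 6098, 3904 and 3504 (log2 change 1.67, SE 0.22, adjusted p = 2.6e-05). Lyz2, lysozyme, an abundant macrophage product, fell from 646372, 530822 and 574990 to 284709.5, 254996 and 245576 (log2 change -1.16, SE 0.12, adjusted p = 1.7e-06).

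Genes of the phosphoinositide 3-kinase (PI3K) pathway were lower for 15 and higher for 4 of 32, with a median of -0.11. Pik3ap1, the adaptor BCAP that recruits PI3K, read 25394, 19896 and 21274 in the M-CSF libraries and 9968, 7721 and 7625 in the IL-4 libraries, a log2 fold change of -1.40 (SE 0.16 and adjusted p = 5.3e-06). Inpp5d (SHIP-1), a phosphatase that opposes PI3K, read 15820.2, 12995 and 14057 under M-CSF and 9257, 8288 and 8286 under IL-4, a log2 fold change of -0.73 (SE 0.08 and adjusted p = 3.8e-06). Sesn1, sestrin 1, an inhibitor of the mTOR complex, read 13413, 17472 and 16105 under M-CSF and 7547, 6791 and 6047 under IL-4, a log2 fold change of -1.20 (SE 0.13 and adjusted p = 2.9e-06). Pik3r3, a regulatory subunit, rose at a low level from 32.3, 19.2 and 28.1 to 116, 78.8 and 75 (log2 change 1.73, SE 0.32, adjusted p = 0.00047). Components that act for and against PI3K were both among the lower genes, and the values of the genes named did not overlap.

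Several of the largest changes lay outside the lists. Among genes with no more than 3 reads in each M-CSF library, Scn3a, a sodium channel chain, had 2146, 1512 and 1299 in the IL-4 libraries, at least 607-fold more (adjusted p = 6.3e-12). Kcnd3, a potassium channel chain, had 1098, 1099.9 and 669, at least 351-fold more (adjusted p = 2.1e-10). Msx3, a homeobox factor, had 199.7, 485 and 447, at least 139-fold more (adjusted p = 1.3e-10), and Cldn11, a tight junction protein, had 419.7, 252 and 169, at least 103-fold more (adjusted p = 2.2e-09). In all, 81 genes were at or under 3 reads in each M-CSF library and above it in each IL-4 library, and 18 genes at or under 3 reads under M-CSF had an IL-4 mean of 50 or more. The reverse pattern was seen for 74 genes, and 0 of those at or under 3 reads under IL-4 had a M-CSF mean of 50 or more. Tmem26, a membrane protein whose promoter motif is named above, read 399.5, 193 and 184 in the M-CSF libraries and 24434, 23905 and 19936 in the IL-4 libraries, a log2 fold change of 6.54 (SE 0.27 and adjusted p = 2.1e-10). Tuba8, an alpha tubulin, went from 13.8, 1.7 and 1.1 to 624, 616 and 555 (log2 change 7.10, SE 0.61, adjusted p = 3.7e-07).

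On the lower side, Gpr162, an orphan receptor gene, read 7429, 3000.2 and 4119 in the M-CSF libraries and 129, 105 and 96 in the IL-4 libraries, a log2 fold change of -5.36 (SE 0.35 and adjusted p = 2.3e-08). Bmp2, a bone morphogenetic protein, read 66.8, 242 and 289 under M-CSF and 3.7, 3.3 and 4.7 under IL-4, a log2 fold change of -5.11 (SE 0.62 and adjusted p = 1.1e-05). Rrad, a small GTPase, read 631, 302 and 380 under M-CSF and 13, 11.6 and 17.6 under IL-4, a log2 fold change of -4.81 (SE 0.31 and adjusted p = 2.2e-08). These genes were picked for having no overlap, and the highest IL-4 library of each was far below the lowest M-CSF library. I830012O16Rik, whose promoter window is printed above, read 2749, 469 and 356 under M-CSF and 62.2, 37.3 and 39.8 under IL-4, a log2 fold change of -4.06 (SE 0.60 and adjusted p = 7.3e-05), and most of its M-CSF signal was in library 1. Emr4, an adhesion receptor of macrophages, went from 2136, 972 and 889.8 to 20.4, 100.4 and 76.1 (log2 change -4.48, SE 0.64, adjusted p = 4.9e-05), and Gpr34, a lysophospholipid receptor, from 1251, 1944 and 1871 to 47.4, 130.2 and 101 (log2 change -4.26, SE 0.51, adjusted p = 9.8e-06). Asb10, whose promoter sequence is given above, had 18.4, 46.3 and 57.4 in the M-CSF libraries and 1.9, 0 and 3.5 in the IL-4 libraries, at least 13.9-fold lower (adjusted p = 2.6e-05).

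Whether the response depended on p110gamma was asked by comparing it with the same response in p110g-/- cells, which uses 6 other libraries. Pik3cg, the gene of p110gamma, read 5308, 5330.3 and 4994 in WT and 1888, 2046 and 1966 in p110g-/- cells under M-CSF, and 3068, 2953 and 3281 and 956, 1083 and 965 under IL-4. Its signal was thus lower in every p110g-/- library but not at 0, and which part of the gene is altered in these mice is not given in the sources used here. In p110g-/- cells 3540 genes (22.7%) were higher and 3315 (21.2%) lower under IL-4. Of the genes higher in WT 2840 were also higher in p110g-/- cells, which is 79.4% of the WT list and 80.2% of the p110g-/- list. Of those lower in WT 2487 were also lower, 75.6% and 75.0% of the lists. The calls were opposite for 1 gene higher and 2 genes lower in WT. Of the genes at least 2-fold changed in WT, 928 of 935 higher and 940 of 955 lower had the same sign in p110g-/- cells. Across genes, which are not independent replicates, the correlation of the 2 responses was 0.901.

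The difference between the genotypes' responses was tested as an interaction. By limma 0 of 15627 genes passed at an adjusted p under 0.05, and 1156 (7.40%) were at an unadjusted p under 0.05. By edgeR 0 genes passed and 1177 were at an unadjusted p under 0.05, and by DESeq2 77 passed and 1236 were at an unadjusted p under 0.05. With library number as a block 8 genes passed by limma, 4 in each direction. Without p110g-/- IL-4 library 1, 89 genes passed, and with WT M-CSF library 2 or WT IL-4 library 2 left out 1 gene passed. A missed threshold does not show that the responses were alike.

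Genes with the smallest interaction p-values serve as examples of the size of differences that these libraries left unresolved. Tspan33, a tetraspanin, read 102, 136 and 80.1 under M-CSF and 21.4, 66.4 and 24.6 under IL-4 in WT cells, and 57.5, 38.2 and 51.3 and 133, 142 and 129 in p110g-/- cells. The response was -1.63 in WT and 1.46 in p110g-/- cells, a difference of 3.09 (SE 0.49, adjusted p = 0.087). A930018M24Rik had responses of 2.47 and 5.72, a difference of 3.25 (SE 0.48, adjusted p = 0.083). Rnf149, a ubiquitin ligase, had -0.50 and -1.22, a difference of -0.72 (SE 0.12, adjusted p = 0.087). Among the hallmark genes, Ccl24 had responses of 6.48 and 9.94, a difference of 3.46 (SE 0.85, adjusted p = 0.28). In p110g-/- cells Ccl24 read 3.4, 2.2 and 7.6 under M-CSF and 1777, 8399 and 7644 under IL-4. Mitosis genes were higher for 24 of 28 in WT and for 28 of 28 in p110g-/- cells, with Aurkb at 1.29 and 2.27, a difference of 0.98 (SE 0.41, adjusted p = 0.58) that missed the threshold.

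**Figure D4:**
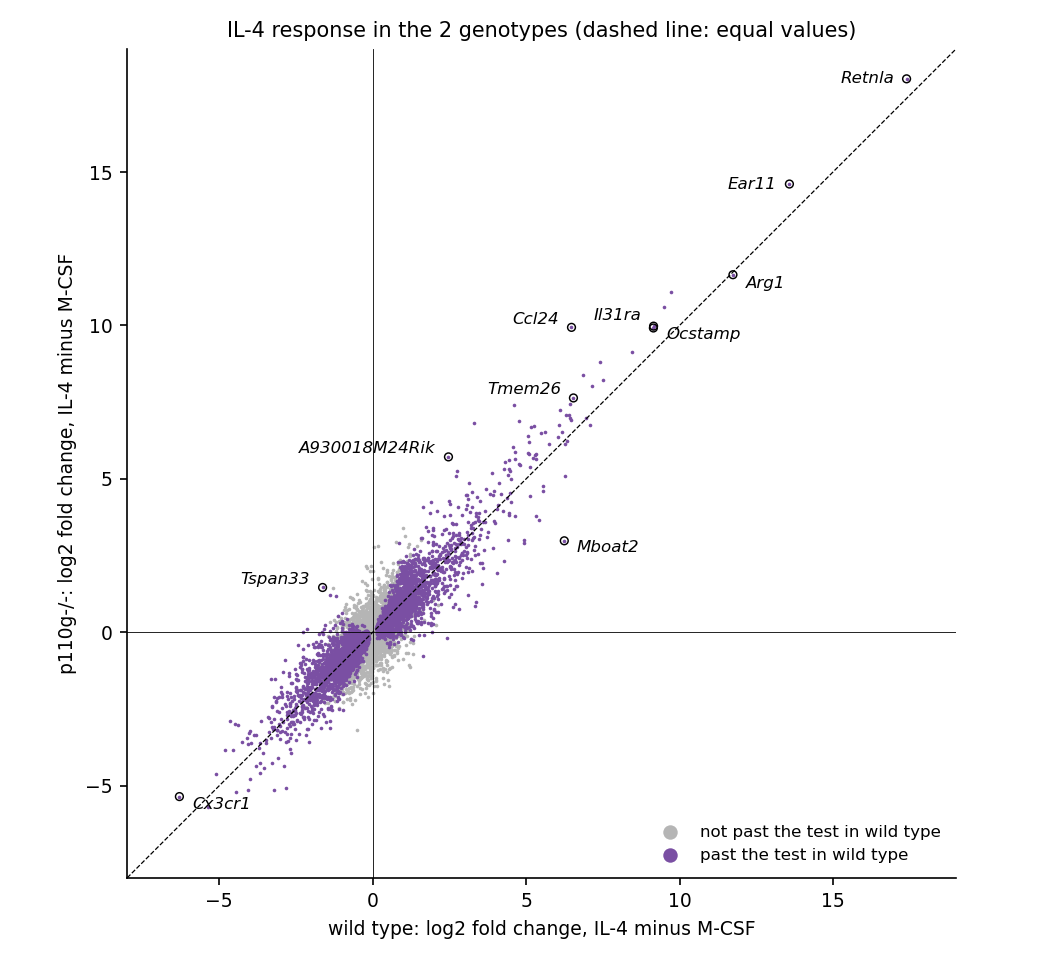
Log2 fold change under IL-4 of each tested gene in WT cells (horizontal axis) and p110g-/- cells (vertical axis), with genes past the test in WT in purple and a dashed line where both are equal. Most points lie along the line (correlation 0.901 across genes), and the genes farthest up both axes are hallmark genes such as Retnla and Ear11.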

How the data were processed

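RNA of 18 libraries (6 groups of 3) was sequenced. Per the submitters' processing notes, CASAVA 1.8.2, Bowtie2, DESeq and the mm9 build were used, and their settings are not given in the sources used here. The deposited signal values are gene counts that the authors divided by 1 factor per library. At least 99.66% of the values in each library lay within a signal of 0.1 of a whole number of reads. The labels do not say whether libraries of a group come from separate animals, so p-values measure the spread between these libraries, which may be technical.

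The main test was limma 3.58.1 (R 4.3.3, trend and robust settings) on log2(signal + 1), with a mean per group over all 18 libraries (12 residual degrees of freedom) and Benjamini-Hochberg adjustment over genes with a signal of at least 10 in 3 or more libraries. The 847 other genes were not tested. The fold changes understate the change of low genes. Any adjusted p in the text is from this limma test unless another tool is named. Alternatives were edgeR 4.0.16 and DESeq2 1.42.0 on the recovered whole reads, other scalings, pseudocounts and filters, and leaving out each library. The edgeR quasi-likelihood test on those reads called 6964 genes. The limma fit was also run on simulated counts with known changes. Those counts had the same setting of spread for every gene and no shift of library 1. The run therefore does not show how the test performs on libraries like these.

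Libraries with the same number tended to deviate together from their group means (correlations of 0.458, 0.347 and 0.179 for numbers 1, 2 and 3). For number 3 this was not specific, as IL-4 library 3 correlated more with M-CSF library 2 (0.256). The numbers were treated as pairing the libraries in an alternative with number as a block. The labels give the numbers and do not say what they mark. Named genes were the hallmark genes, the 12 largest changes in each direction among called genes with no overlap, a mean of at least 50 and both groups above 3 reads, the 8 most abundant genes at or under 3 reads in each other group, the 4 smallest p-values in each direction of each list, the 5 smallest interaction p-values in each direction, and list members that did not pass the test. The members and lists were chosen with earlier results of these data known. Promoter sequences are from RefSeq on GRCm38.p6, not from the authors' build. Figures were drawn with matplotlib 3.10.9. A few genes of the lists are not reported here by name.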

Additional observations from a re-analysis of the deposited data

How the results depend on the processing

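No named gene past the test changed direction under the alternatives run. Tgm2 (-0.32 to 0.16 on the log2 scale), Pear1 (-0.30 to 0.35) and Pik3cb (-0.14 to 0.01), which did not pass it, changed sign when 1 library was left out. The 6868 WT calls became 1890 (935 higher, 955 lower) when a log2 fold change of at least 1 in size was also asked. With it, the called genes found in the gene lists went from 620 to 251, and those among the named genes from 301 of 308 to 190. Leaving out 1 library gave 5601 to 6649 WT calls. With library number as a block, which treats libraries of the same number as belonging together, 7475 genes passed in WT. Of the 6868 calls, 6813 (99.2%) kept their direction. Among named genes the block ended the call of Pnpla2 and added that of Atp6v0d2. By edgeR 6612 and by DESeq2 6762 of the 6868 calls kept their direction. The balance of 3577 higher and 3291 lower genes turned to more lower than higher with TMM scaling (3329 and 3486), with upper quartile scaling (3132 and 3751) and by edgeR (3411 and 3553). Of the named genes 31 lost their call under at least 1 of 21 settings. Those that lost it without 1 library and are counted in the lists without being described were Cd79b, Ctsd, Ctso, Eno2, Ms4a2, Nfe2l2, P2rx5, Pfkl, Pik3r6, Prg2 and Steap3. The interaction count of 0 became 7 with a pseudocount of 5, 8 with library number as a block, 77 by DESeq2, 385 with the libraries numbered 2 and 3 only, and 0 to 89 when 1 library was left out. The cause of these changes was not tested. Depth limits the genes at or under 3 reads in a group, for which only a bound on the fold is given.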

Other observations

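Some changed genes stood beside each other on the chromosome. Among 13522 tested protein-coding genes placed by RefSeq (GRCm38.p6), 41 runs of 3 or more neighbours, each within 200000 bases of the next, were all at least 2-fold changed in 1 direction, 21 runs higher and 20 lower, with 141 genes in all. This is a count with no test of how often such runs arise, and many runs hold gene families whose members share sequence. Among the higher runs were the IL-1 receptor family genes Il1r1, Il1rl2 and Il1rl1, the lectins Asgr2, Mgl2 and Clec10a, the MHC class II genes H2-Ab1, H2-Aa and H2-Eb1, the desaturases Scd3, Scd2, Scd4 and Scd1, and a run with the coagulation genes F7, F10 and Proz. Among the lower runs were the formyl peptide receptors Fpr1, Fpr2 and Fpr3, the apolipoproteins Apoc2, Apoc1 and Apoe, the collagen genes Col4a1 and Col4a2 with Rab20, the purine receptors P2ry13 and P2ry12 with Igsf10, and interferon-induced genes of the Ifit, Gbp and Cxcl groups. These runs were chosen for mention after their values were seen.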
